A study of Mus musculus with 13 samples.

Results

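The 2 Iroquois clusters of the mouse were examined for open chromatin in 3 embryonic tissues by ATAC-seq, which marks DNA that the Tn5 transposase can reach. A cluster was taken as the interval between its outermost Irx genes plus 100 kb on each side. IrxA (Irx1, Irx2 and Irx4) covered chr13:71857921-73369608, or 1.51 Mb, and IrxB (Irx3, Irx5 and Irx6) covered chr8:91698525-92780956, or 1.08 Mb (mm10, GENCODE M21 gene models). A deposited region was a member when its strongest summit fell in 1 of these intervals, so that members were chosen by position. The deposited regions nearest to the ends of the intervals lay 7865 to 56544 bp inside and 5972 to 52464 bp outside them. Of 1360342 regions deposited over all 13 libraries, 1273 were members, and a library held between 73 and 140 of them. The 50000 strongest regions of 12 libraries were joined where they overlapped into 111870 consensus regions, of which 115 were members, 66 in IrxA and 49 in IrxB. The members are numbered along the chromosome (IrxA-1 to IrxA-66 and IrxB-1 to IrxB-49). They were 232 to 1855 bp wide, and 86 of 115 were intergenic, 52 in IrxA and 34 in IrxB. The median member lay 146663 bp from the nearest Irx start, and the farthest lay 330093 bp away. Outside the Irx genes, IrxA held the protein-coding genes Ndufs6 and Mrpl36, and IrxB held none.

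All embryos were of strain B6CBAF1 at stage E12.5, and a library was made from 50000 cells. Wild-type (wt) embryos were compared with embryos homozygous for allele 542 (II1TDOM), in which a copy of the II1 limb enhancer of the HoxD locus, with an HBB promoter and a LacZ reporter, had been placed in the T-DOM regulatory landscape on chromosome 2. Neither Iroquois cluster carries an engineered change. Forelimbs were divided into a distal (DFL) and a proximal (PFL) part, the forebrain (FB) was taken as well, and each of the 6 groups of genotype and tissue had 2 replicates, each a separate pool of tissue from several embryos. Allele 542 is 1 breeding line, and its reads were mapped on the mutant genome while wt reads were mapped on mm10, so that genotype and mapping cannot be told apart. The tissues are mixtures, in which fewer cells of a type and less accessibility per cell cannot be told apart. An additional, earlier wt DFL library was kept out of the comparisons.

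Irx genes encode homeodomain transcription factors of the TALE class, named after the Iroquois genes of the fruit fly, and vertebrates carry them in clusters that arose by duplication. The clusters are known as gene-poor stretches with many conserved noncoding elements, over which neighbouring Irx genes share regulatory sequence. In the limb, Irx3 and Irx5 act early in the bud on the skeleton, and Irx1 and Irx2 are known from the digits and joints. In the brain, Irx genes are known for their part in dividing the forebrain along its axis, where Six3 and Irx3 repress each other. Irx4 is best known from the ventricles of the heart, and Irx5 and Irx6 from the bipolar cells of the retina.

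The 12 libraries held 37.5 to 70.7 M tags (M for mega) as recovered from the deposited values, and FB libraries (51.4 to 70.7 M) were deeper than most limb libraries (37.5 to 54.5 M). Lists of equal length were therefore compared, and the fold, the tags at a summit over the local background of the same library, was centred on each library's median before tests. Tissue labels were checked at the starts of marker genes. The region over Hoxd13, a distal limb gene, was higher in DFL than in PFL by 1.06 on the log2 scale (SE 0.114, limma adjusted p = 0.0019), Twist1 of limb mesenchyme was higher in limb than in FB by 1.27 (adjusted p = 3.8e-06), and Six3 of the forebrain had a region in 4 of 4 FB libraries and in none of 8 limb libraries. Of the PFL markers Meis1 and Shox2, neither passed the test between DFL and PFL. Other markers went against their lists: the starts of the forebrain genes Lhx2 and Dlx1 were open in all 8 limb libraries and were higher in limb (0.34 and 0.68, adjusted p = 0.00361 and 0.00231), and Prrx1 of limb mesenchyme was at -0.35 (adjusted p = 0.0449). Of the midbrain and hindbrain markers, En2 was at -0.50 and Egr2 at 0.28 for limb minus FB (adjusted p = 0.00167 and 0.00777). The endothelial markers Kdr and Tek were both higher in limb (0.71 and 1.23, adjusted p = 0.00243 and 0.000271). Of the blood markers, Gata1 had no region over its start in any of the 12 libraries, and Klf1 had 1 in each. The muscle markers that could be tested, Myod1 and Pax3, did not pass, and the third, Myf5, had a region in 2 of 4 DFL, 4 of 4 PFL and no FB libraries. Of the ectoderm markers Krt14 had a region in 1 of 12 libraries and Trp63 in 3 of 4 DFL, 3 of 4 PFL and no FB libraries. The part of other cell types in the results below was not tested.

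The sequences that carry the tissue patterns described below are shown as windows of 300 bp centred on the strongest summit of a member. They are the forward strand of the RefSeq GRCm38.p6 assembly, the build mm10 was made from. Capitals mark matches, on either strand, to CCAATAAA (known from HOX13 binding), TGACAG (MEIS), TAATTA (homeodomain), ACATGT (IRX), CAGATG (bHLH) or the core of the CTCF motif. The first window is that of the member with the highest fold of IrxA in all 3 tissues. The next 2 are open in limb, the following 3 in FB only, and the last 4 are open in DFL and FB, most strongly in DFL, in PFL only and over the Irx2 start in all tissues. The Irx2 window is the RefSeq promoter. RefSeq promoters were matched for 3 of the 6 Irx genes, Irx2, Irx3 and Irx4.
IrxA-58, chr13:73160347-73160646, + strand: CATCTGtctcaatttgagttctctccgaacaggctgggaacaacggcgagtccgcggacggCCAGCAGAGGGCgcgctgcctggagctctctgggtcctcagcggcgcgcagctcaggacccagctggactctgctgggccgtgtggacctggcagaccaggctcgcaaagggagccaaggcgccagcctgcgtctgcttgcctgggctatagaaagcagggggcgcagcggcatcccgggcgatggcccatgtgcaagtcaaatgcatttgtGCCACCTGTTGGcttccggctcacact
IrxA-13, chr13:72198744-72199043, + strand: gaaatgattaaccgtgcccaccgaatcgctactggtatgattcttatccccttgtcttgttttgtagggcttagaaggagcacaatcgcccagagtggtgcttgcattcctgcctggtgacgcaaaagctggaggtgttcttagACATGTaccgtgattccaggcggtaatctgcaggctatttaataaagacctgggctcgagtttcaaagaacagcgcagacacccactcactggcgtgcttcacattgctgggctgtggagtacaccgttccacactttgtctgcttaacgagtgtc
IrxB-18, chr8:92114773-92115072, + strand: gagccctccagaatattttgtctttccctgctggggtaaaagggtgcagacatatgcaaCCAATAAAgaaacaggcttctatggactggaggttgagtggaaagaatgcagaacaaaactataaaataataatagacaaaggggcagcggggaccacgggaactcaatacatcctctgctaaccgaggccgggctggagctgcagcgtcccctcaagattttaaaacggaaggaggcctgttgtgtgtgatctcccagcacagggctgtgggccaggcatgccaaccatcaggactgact
IrxA-52, chr13:73034551-73034850, + strand: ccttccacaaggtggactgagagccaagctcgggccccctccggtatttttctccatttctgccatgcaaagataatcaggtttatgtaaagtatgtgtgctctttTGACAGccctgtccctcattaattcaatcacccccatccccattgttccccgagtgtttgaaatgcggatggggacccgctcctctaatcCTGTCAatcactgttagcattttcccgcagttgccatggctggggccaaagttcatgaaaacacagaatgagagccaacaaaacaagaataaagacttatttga
IrxB-16, chr8:92071731-92072030, + strand: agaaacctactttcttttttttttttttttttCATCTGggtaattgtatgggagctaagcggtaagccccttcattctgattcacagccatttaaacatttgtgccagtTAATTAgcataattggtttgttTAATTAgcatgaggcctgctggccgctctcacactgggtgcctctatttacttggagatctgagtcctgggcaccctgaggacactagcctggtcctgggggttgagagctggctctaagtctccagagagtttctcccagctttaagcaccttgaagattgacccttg
IrxB-19, chr8:92134164-92134463, + strand: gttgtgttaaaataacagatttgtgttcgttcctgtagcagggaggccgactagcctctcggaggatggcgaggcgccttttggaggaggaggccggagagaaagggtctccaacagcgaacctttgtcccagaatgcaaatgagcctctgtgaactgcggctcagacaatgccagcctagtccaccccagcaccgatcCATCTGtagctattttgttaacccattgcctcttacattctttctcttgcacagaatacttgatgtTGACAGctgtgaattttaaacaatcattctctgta
IrxA-19, chr13:72288846-72289145, + strand: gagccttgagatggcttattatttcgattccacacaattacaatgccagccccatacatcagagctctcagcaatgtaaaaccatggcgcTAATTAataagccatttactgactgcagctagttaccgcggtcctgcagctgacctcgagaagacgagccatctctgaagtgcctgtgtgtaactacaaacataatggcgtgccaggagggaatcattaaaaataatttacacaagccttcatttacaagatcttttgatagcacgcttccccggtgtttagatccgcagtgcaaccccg
IrxB-7, chr8:91930486-91930785, + strand: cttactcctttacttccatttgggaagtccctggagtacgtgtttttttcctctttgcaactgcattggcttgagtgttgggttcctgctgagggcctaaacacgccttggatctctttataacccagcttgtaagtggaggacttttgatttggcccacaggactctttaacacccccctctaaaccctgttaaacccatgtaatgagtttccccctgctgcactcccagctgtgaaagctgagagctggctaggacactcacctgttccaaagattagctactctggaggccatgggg
IrxA-48, chr13:72978274-72978573, + strand: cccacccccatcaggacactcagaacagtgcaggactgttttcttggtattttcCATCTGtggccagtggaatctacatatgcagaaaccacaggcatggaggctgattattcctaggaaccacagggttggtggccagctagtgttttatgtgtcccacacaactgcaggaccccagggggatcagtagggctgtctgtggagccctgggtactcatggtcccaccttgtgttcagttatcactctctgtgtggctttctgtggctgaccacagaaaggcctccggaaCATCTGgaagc
Irx2 promoter, chr13:72628570-72628869, + strand: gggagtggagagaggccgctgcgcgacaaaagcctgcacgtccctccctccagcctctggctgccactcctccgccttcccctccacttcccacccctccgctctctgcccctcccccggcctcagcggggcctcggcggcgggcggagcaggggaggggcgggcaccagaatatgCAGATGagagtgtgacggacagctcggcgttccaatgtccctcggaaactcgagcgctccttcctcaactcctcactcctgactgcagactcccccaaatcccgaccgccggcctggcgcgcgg

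The strongest region within 1000 bp of an Irx transcript start in IrxB was that next to Irx5, over the divergent noncoding gene Crnde (IrxB-29, its summit 1421 bp from the Irx5 start). Its fold was 11.4 and 12.45 in wt DFL and 11.4 and 13.5 in 542 DFL, 11.2 and 12.51 in wt PFL and 12.3 and 11.4 in 542 PFL and 15.7 and 16.3 in wt FB and 13.7 and 14.1 in 542 FB. The 4 FB values stood above all 8 limb values, but after centring the difference of limb minus FB was -0.13 on the log2 scale (SE 0.070, limma adjusted p = 0.171) and did not pass the test. The Irx5 start itself (IrxB-30, 111 bp away) was weak, with folds between 2.14 and 3.68 in the 11 libraries that had it.

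The Irx2 start (IrxA-33) was the strongest Irx start of IrxA. Its fold was 10.2 and 10.9 in wt DFL and 10.7 and 9.80 in 542 DFL, 7.44 and 7.65 in wt PFL and 9.54 and 8.51 in 542 PFL and 8.57 and 9.31 in wt FB and 10.1 and 11.7 in 542 FB. All 4 DFL values were above all 4 PFL values, while FB overlapped both. The difference of DFL minus PFL was 0.27 (SE 0.077, limma adjusted p = 0.0789). The Irx1 start (IrxA-4) was open at a lower fold, with a mean of 6.06 ± 0.754 in DFL, 4.67 ± 0.523 in PFL and 5.59 ± 0.648 in FB (SD, n = 4 each) and the 3 groups overlapped. Neither the Irx6 start (IrxB-44, mean 4.97 ± 1.61 in DFL, 5.29 ± 0.461 in PFL and 5.36 ± 0.978 in FB) nor the Irx3 start (IrxB-3, mean 3.92 ± 0.821, 4.34 ± 0.840 and 3.92 ± 0.516) passed the test between tissues. For Irx3 the lowest adjusted p of the tissue contrasts was 0.156, and for Irx6 it was 0.567.

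The start of Irx4, the gene of the heart ventricle, was weak as well. A region over it (IrxA-59) was called in 3 of 4 DFL, 4 of 4 PFL and 3 of 4 FB libraries. Its fold was 3.37 and 4.66 in wt DFL and 2.27 in 1 542 DFL library, and 5.29 and 4.91 in wt PFL and 2.88 and 2.57 in 542 PFL. In FB it was 3.28 in 1 wt library and 2.31 and 3.69 in 542. Since it was uncalled in 2 libraries it could not enter the test of folds. The Irx2 start was thus above those of Irx1, Irx6 and Irx3, which overlapped in single libraries, and the regions over the starts of Irx4 and Irx5 themselves had low folds that overlapped as well. Irx5 stands high only when IrxB-29 over Crnde is counted as its start. The regions over the Irx2 and Irx3 starts also hold transcript starts of noncoding genes, Gm20554 in IrxA-33 and Irx3os in IrxB-3. A fold is a ratio within 1 place, and these levels are a description without a test between genes.

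**Figure D1:**
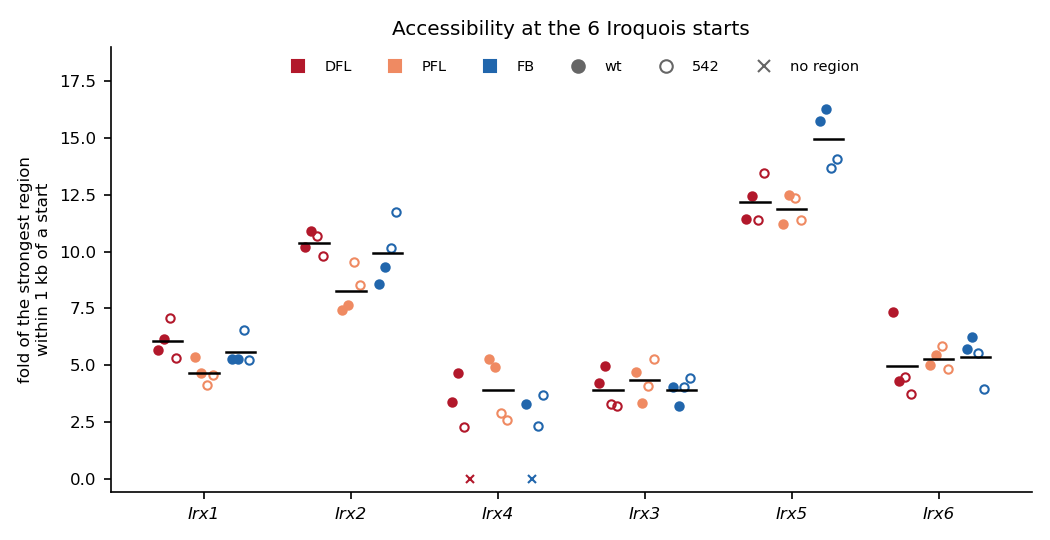
Fold of the strongest region within 1000 bp of a transcript start, for the 6 Irx genes (IrxA to the left, IrxB to the right), which for Irx5 is IrxB-29 over Crnde. Points are libraries (filled wt, open 542, a cross where no region was called) and bars are means of 4 libraries. The points of Irx5 and Irx2 stand above the others in every tissue, and the Irx4 start is uncalled in 1 DFL and 1 FB library.

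Only 8 of the 115 members (6.96%) had a place in the lists of every one of the 12 libraries, against 16.9% of all consensus regions, and 28 (24.3%) were in a single library, against 21.0%. Of these 8, 5 lay over transcript starts, those of Irx1, Irx2, Crnde and, for a neighbouring pair of members, Mrpl36 and Ndufs6. Ndufs6 is a subunit of respiratory complex I, and Mrpl36 is a protein of the mitochondrial ribosome. The remaining 3 were IrxA-58, IrxB-9 and IrxB-36, away from coding starts.

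IrxA-58 (chr13:73159788-73160794, intergenic, between Irx2 and Irx4 and 99982 bp from the Irx4 start) had the highest fold of all IrxA members. Its fold was 16.9 and 14.4 in wt DFL and 14.9 and 16.2 in 542 DFL, 13.8 and 16.5 in wt PFL and 15.1 and 13.4 in 542 PFL and 16.2 and 16.1 in wt FB and 16.4 and 11.6 in 542 FB. The tissues overlapped, and limb minus FB was 0.19 (SE 0.109, limma adjusted p = 0.2). Its window printed above holds a match to the core of the CTCF motif on each strand, which was found in 7.09% of all consensus windows, in 12.4% of those open in all 12 libraries and in 5 of 115 members (4.35%).

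**Figure D2:**
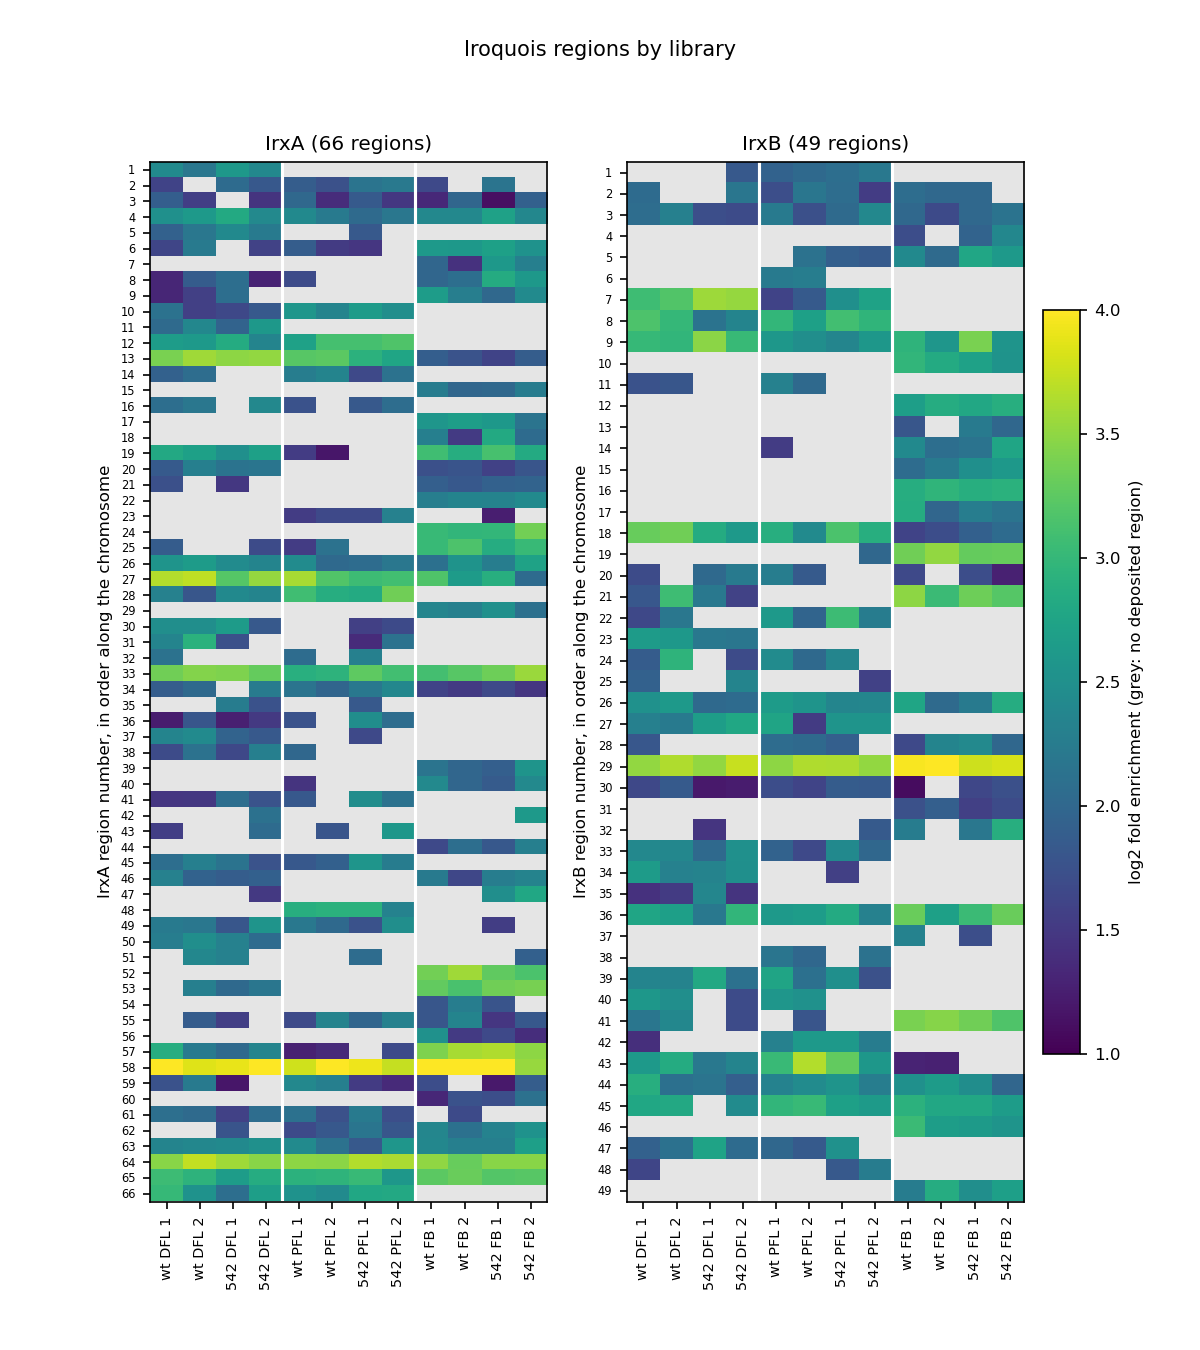
Deposited fold on a log2 scale for each of the 66 IrxA and 49 IrxB members (rows, in order along the chromosome) in the 12 libraries (columns, white lines between DFL, PFL and FB). Grey cells have no deposited region. IrxA-58, IrxA-64, IrxA-33 and IrxB-29 are bright in every library, while rows such as IrxA-52 and IrxB-16 are coloured in FB alone.

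Between limb and FB the members split into small groups of opposite pattern. Among the 50000 strongest regions, 4 members were present in all 8 limb and no FB library (3.48% of members, against 4.78% of all consensus regions), and 14 were present in all 4 FB and no limb library (12.2%, against 8.73%). These are also the 4 and 14 members that passed the presence test (Fisher's exact test per region, two-sided, Benjamini-Hochberg adjusted p = 0.0150 over all 111870 regions, the smallest it can give in this design). At an unadjusted p under 0.05 there were 8 members higher in limb (6.96%, against 7.33% of all regions) and 21 lower (18.3%, against 12.99%). Of the folds, 16 members were deposited in all 12 libraries and could be tested. Of these 4 were higher in limb (the background being 21.9% of the 27032 regions tested) and 0 were lower (background 14.8%), and 5 of the 16 had an unadjusted p under 0.05 (31.2%, against 45.8% of all regions tested). The median difference of the 16 was 0.11 on the log2 scale, against 0.03 over all regions tested. A member open in FB alone could not be among the 16.

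The clearest limb member was IrxA-13 (chr13:72198114-72199251, intergenic, 235171 bp from the Irx1 start towards Irx2). Its fold was 10.5 and 11.9 in wt DFL and 11.2 and 11.4 in 542 DFL, 9.35 and 9.50 in wt PFL and 7.60 and 6.82 in 542 PFL and 3.74 and 3.40 in wt FB and 3.04 and 3.69 in 542 FB. DFL was highest, PFL was lower and FB was lowest, with no overlap between any of the 3 tissues. Limb was higher than FB by 1.66 on the log2 scale (SE 0.067, limma adjusted p = 1.53e-06), which is a ratio of 3.15, in 8 of 8 limb libraries.

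IrxB-18 (chr8:92113482-92115336, intergenic, 242702 bp from the Irx5 start towards Irx3) was its counterpart in the other cluster. The fold there was 9.90 and 10.2 in wt DFL and 7.19 and 6.09 in 542 DFL, 7.39 and 5.43 in wt PFL and 8.91 and 7.39 in 542 PFL and 3.04 and 3.26 in wt FB and 3.80 and 4.15 in 542 FB. All 8 limb values lay above all 4 FB values, and the difference was 1.29 (SE 0.091, limma adjusted p = 1.18e-05), a ratio of 2.45. In DFL the wt pair was above the 542 pair and in PFL the 542 pair was at or above the wt pair.

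The other members present only in limb were IrxA-12 and IrxB-43. At IrxA-12 (chr13:72183989-72185003), 14445 bp before IrxA-13 as measured between summits, the fold was 6.30 and 6.13 in wt DFL and 7.19 and 5.10 in 542 DFL and 6.60 and 8.68 in wt PFL and 8.64 and 9.03 in 542 PFL, and no FB library had a region, which among the 4 limb-only members holds for this 1. At IrxB-43 (chr8:92628670-92629760, 45044 bp from the Irx6 start) the fold was 6.15 and 7.18 in wt DFL and 4.61 and 5.10 in 542 DFL and 8.16 and 12.6 in wt PFL and 9.69 and 5.99 in 542 PFL, against 2.45 and 2.41 in wt FB and no region in 542 FB. PFL spread widely there, from 5.99 to 12.6, and overlapped DFL.

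2 further members passed the test of folds although they were open in FB too. IrxA-27 (chr13:72400389-72401397, intergenic, 227999 bp from the Irx2 start) was at 12.55 and 13.1 in wt DFL and 9.26 and 11.5 in 542 DFL, 12.2 and 9.12 in wt PFL and 8.33 and 8.53 in 542 PFL and 8.99 and 6.24 in wt FB and 7.34 and 4.15 in 542 FB. Limb exceeded FB by 0.87 (SE 0.166, limma adjusted p = 0.00311), although the highest FB value, 8.99 in wt FB replicate 1, lay within the PFL range before centring. IrxA-64, the shared start of Mrpl36 and Ndufs6, was higher in limb by 0.31 (SE 0.068, limma adjusted p = 0.0069). With regions deposited in at least 4 libraries it was at 0.09 and no longer passed (adjusted p = 0.343).

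**Figure D3:**
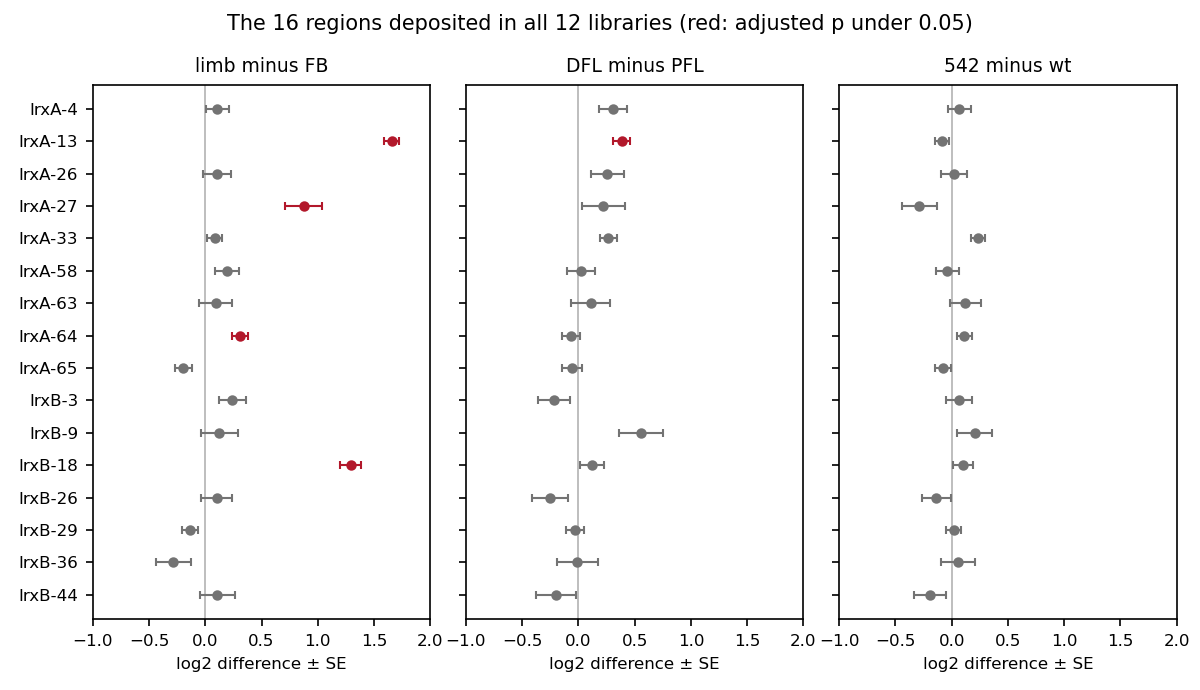
Difference in log2 fold (limma estimate ± SE) for the 16 members deposited in all 12 libraries, for limb minus FB, DFL minus PFL and 542 minus wt. Red points have an adjusted p under 0.05. IrxA-13 (1.66) and IrxB-18 (1.29) stand farthest from 0 in limb minus FB, and no point is red for 542 minus wt.

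Members present only in FB were more numerous than those present only in limb, as were such regions over the genome (9764 and 5345). The 2 patterns are unlike, since the limb pattern asked for 8 libraries of 2 tissues and the FB pattern for 4 of 1. The FB-only members lay mostly between the first 2 genes of each cluster. Of the 14 present only in FB, 9 were in IrxA and 5 in IrxB, 6 of them between Irx1 and Irx2 and 4 between Irx3 and Irx5. Of the 14, 7 had no deposited region in any limb library and 7 had a region in at least 1. At 2 of the latter the limb and FB folds overlapped. IrxA-9 was at 4.24 in 542 DFL replicate 1 and at 4.05 in 542 FB replicate 1. IrxA-62 was at 4.50 in 542 PFL replicate 1 and at 4.33 in wt FB replicate 2. The intervals between the first 2 genes of each cluster also hold the most members in all, 30 between Irx1 and Irx2 and 26 between Irx3 and Irx5.

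In IrxA the strongest were IrxA-52, IrxA-53 and IrxA-24. IrxA-52 (chr13:73034188-73035282, intergenic, 225778 bp from the Irx4 start) had a fold of 10.3 and 11.9 in wt FB and 9.67 and 8.91 in 542 FB, and no limb library had a region. IrxA-53, 7246 bp beyond it, had 9.70 and 8.79 in wt FB and 10.2 and 10.4 in 542 FB, against 4.06 to 4.90 in the 3 DFL libraries that had a region. IrxA-24 (chr13:72345428-72346510, 283023 bp from the Irx2 start) was at 8.12 and 7.88 in wt FB and 7.93 and 10.3 in 542 FB and had no limb region.

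In IrxB the strongest was IrxB-19 (chr8:92133561-92134822, 223311 bp from the Irx5 start), 19391 bp from the limb member IrxB-18. Its fold was 10.2 and 11.4 in wt FB and 9.82 and 9.84 in 542 FB, against a single limb value of 4 in 542 PFL replicate 2. IrxB-16 (chr8:92071366-92072518, 269814 bp from the Irx3 start) was at 7.32 and 7.80 in wt FB and 7.39 and 7.56 in 542 FB, the narrowest spread of the FB members named here. IrxB-12, over the start of the noncoding gene Gm36843, was at 6.42 and 7.23 in wt FB and 6.96 and 7.37 in 542 FB. Neither IrxB-16 nor IrxB-12 had a region in any limb library, deposited at any strength. Limb and FB members thus stood close together between Irx3 and Irx5.

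Other strong FB members were also open, at a lower fold, in some limb libraries. IrxA-57 (chr13:73116709-73118022, 142888 bp from the Irx4 start) had a mean fold of 11.7 ± 0.844 in FB (SD, n = 4, the lowest 10.7), against 4.06 to 7.31 in DFL and 2.41 to 3.20 in the 3 PFL libraries with a region. IrxB-41 (chr8:92545320-92546311, 128786 bp from the Irx6 start) was at 10.5 and 11.0 in wt FB and 10.2 and 9.05 in 542 FB, against 3.21 to 5.25 in 3 DFL libraries and 3.47 in wt PFL replicate 2. FB did not overlap limb at either. Both were left out of the FB-only count because a limb library had them among its 50000 strongest regions.

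**Figure D4:**
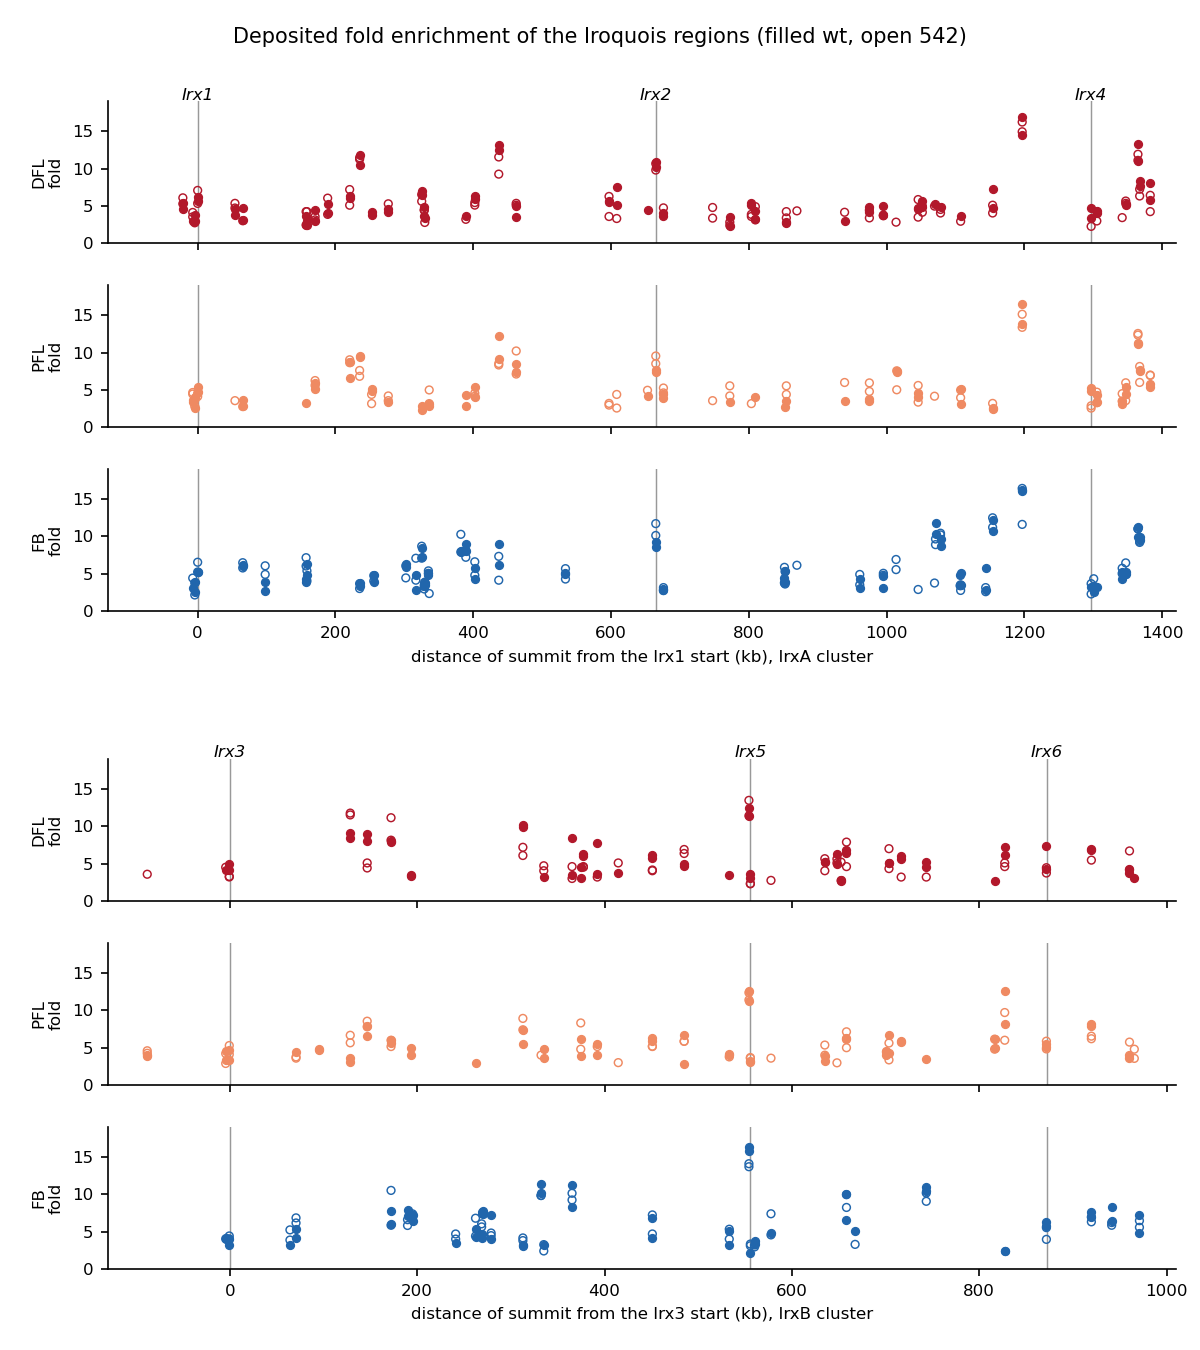
Deposited fold of every member against the distance of its summit from the Irx1 start (upper 3 panels, IrxA) or the Irx3 start (lower 3 panels, IrxB), by tissue. Points are libraries (filled wt, open 542) and grey lines are the Irx starts. Between Irx2 and Irx4 the FB panel has a pair of members, IrxA-52 and IrxA-53, at folds of 8.79 to 11.9 where the limb panels have low points or none.

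In IrxA the number of members among the 50000 strongest regions was higher in FB than in limb. DFL libraries held 21 and 20 (wt) and 19 and 22 (542), PFL libraries 17 and 15 (wt) and 18 and 24 (542), and FB libraries 22 and 25 (wt) and 27 and 29 (542). The ranges overlapped, since 542 PFL replicate 2 (24) lay above the lowest FB count of 22 and 542 DFL replicate 2 equalled it. The mean was 19.5 in limb and 25.8 in FB, a difference of -6.25 (two-sided exact permutation test over libraries, p = 0.00808, adjusted over 6 tests 0.0485). Counting all deposited regions, which moves with depth, the difference was -8.62 and did not pass (exact permutation p = 0.0828). Counting regions with a −log10 q of at least 10, which moves with depth as well, it was -9.5 (exact permutation p = 0.00202).

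In IrxB the counts were 20 and 20 (wt) and 14 and 14 (542) in DFL, 19 and 14 (wt) and 20 and 19 (542) in PFL, and 19 and 16 (wt) and 23 and 20 (542) in FB. The tissues overlapped. Limb averaged 17.5 and FB 19.5, and the difference of -2 did not pass the exact permutation test (p = 0.327). Whether the 2 clusters differ in this was not tested. DFL and PFL differed by 2 in IrxA and by -1 in IrxB (exact permutation p = 0.429 and 1, where the smallest p that 4 against 4 libraries can give is 0.0286).

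**Figure D5:**
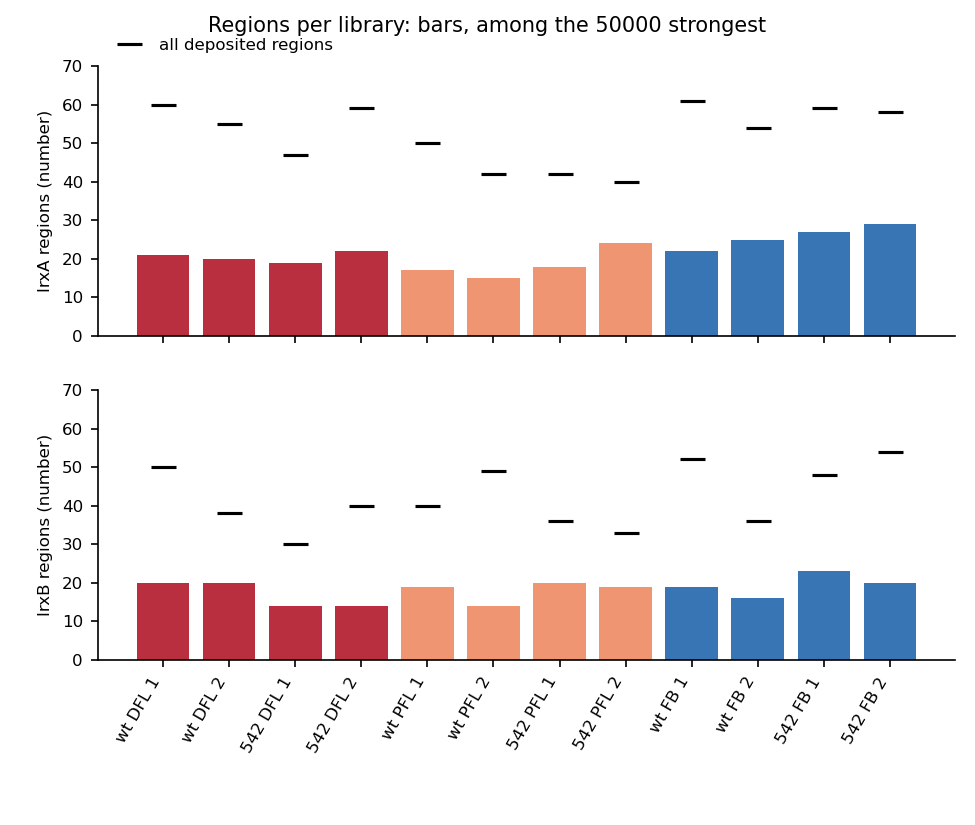
Number of members per library in IrxA (top) and IrxB (bottom). Bars count members among the 50000 strongest regions (DFL dark red, PFL orange, FB blue) and dashes count all deposited members. In IrxA the FB bars reach 22 to 29 and the limb bars 15 to 24.

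Along the limb axis few members differed. 2 members were present in all 4 DFL and no PFL library (1.74%, against 2.51% of all consensus regions), and 3 in all 4 PFL and no DFL library (2.61%, against 2.05%). None of the 111870 regions could pass the adjusted presence test (background 0% in each direction), since the smallest p is 0.0286 and its adjusted value 0.626. Of the 16 members with a testable fold, 1 was higher in DFL (background 3.6%) and 0 were lower (background 2.90%), and 4 had an unadjusted p under 0.05 (25%, against 21.1%). Their median difference of DFL minus PFL was 0.07, against -0.04 over all regions.

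The member called was IrxA-13, whose 4 DFL values exceeded its 4 PFL values by 0.38 on the log2 scale (SE 0.077, limma adjusted p = 0.0209). With tags scaled to depth in place of the fold the difference was 0.38 as well, with an adjusted p of 0.0707. Leaving out any 1 of wt DFL replicate 2, 542 DFL replicate 1 or 2, wt PFL replicate 1 or 2 or 542 PFL replicate 2 raised the adjusted p to between 0.0515 and 0.0710, with differences of 0.34 to 0.40. IrxB-9, over an exon of the noncoding gene Gm36670, had a larger difference with a wider error (0.55, SE 0.192, adjusted p = 0.133).

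Another member higher in DFL was IrxB-7 (chr8:91930374-91930968, intergenic, 128569 bp from the Irx3 start). The fold was 8.38 and 9.10 in wt DFL and 11.8 and 11.5 in 542 DFL and 3.04 and 3.62 in wt PFL and 5.65 and 6.65 in 542 PFL, and no FB library had a region. The DFL and PFL values did not overlap, and within each of the 2 tissues the 542 pair lay above the wt pair. It could not enter the test of folds, having no FB value. Next to it, IrxB-8 (chr8:91948244-91949493, 146663 bp from the Irx3 start) was at 8.92 and 7.98 in wt DFL and 4.42 and 5.10 in 542 DFL and 7.94 and 6.53 in wt PFL and 8.54 and 7.79 in 542 PFL, again with no FB region. There the DFL and PFL values overlapped, and in DFL the wt pair lay above the 542 pair. Among the 12 libraries, neighbouring limb members of IrxB thus had opposite orders of the genotypes in DFL. The earlier wt DFL library, kept out of the comparisons, did not follow this order at IrxB-7. It was at 11.78 there, above both 542 DFL values, and at 9.10 at IrxB-8, also above both.

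IrxA-19 (chr13:72288394-72289567, intergenic, 325273 bp from the Irx1 start) was open in DFL and FB but hardly in PFL. Its fold was 6.995 and 6.51 in wt DFL and 5.62 and 6.53 in 542 DFL and 8.46 and 7.30 in wt FB and 8.70 and 7.10 in 542 FB, against 2.90 and 2.26 in wt PFL and no region in 542 PFL. IrxB-34 (chr8:92449435-92450477, 92534 bp from the Irx5 start) was at 6.24 and 5 in wt DFL and 5.09 and 5.64 in 542 DFL, with 1 PFL value of 2.97 and no FB region. These are the 2 members of the DFL pattern. DFL did not overlap PFL at either, which follows largely from the pattern they were chosen by.

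The 3 members of the PFL pattern were IrxA-10, IrxA-48 and IrxB-42. IrxA-48 (chr13:72978062-72978865, intergenic, 282055 bp from the Irx4 start) was at 7.38 and 7.52 in wt PFL and 7.55 and 5.02 in 542 PFL, with no region in any DFL or FB library. IrxA-10 (170553 bp from the Irx1 start) was at 5.95 and 5.13 in wt PFL and 6.25 and 5.59 in 542 PFL, above its DFL folds of 2.98 to 4.39. IrxB-42 (55831 bp from the Irx6 start) was at 4.99 and 6.18 in wt PFL and 6.14 and 4.79 in 542 PFL, with 2.64 in wt DFL replicate 1 as the single other value. PFL did not overlap DFL at any of the 3, which again follows largely from the choice by pattern. The share of all regions without such overlap was not counted.

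Between 542 and wt no member passed a test. In the fit of folds, 0 of 16 members were called in either direction (limma, background 0.0925% higher and 0.0999% lower), and 1 had an unadjusted p under 0.05 (6.25%, against 14.3%). This was the Irx2 start (IrxA-33), at 0.24 (SE 0.063, adjusted p = 0.172). The median difference of the 16 was 0.04, against 0.02 over all regions tested. In the presence test 0 of 115 members were called (Fisher's exact test, background 0%), and none had an unadjusted p under 0.05. This test pooled the tissues, and no region of the genome passed it (smallest unadjusted p 0.00216). A member present in 1 tissue in both 542 and no wt libraries, such as IrxA-7, had a Fisher p of 0.455. The test could therefore not call a genotype difference confined to 1 tissue. The difference between limb and FB of the 542 minus wt effect was called for 0 of 16 members (limma interaction, background 0%, smallest adjusted p 0.575, 1 member with an unadjusted p under 0.05, or 6.25% against 8.06%).

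Member counts did not separate the genotypes over all tissues. The 542 libraries averaged 23.2 members in IrxA and the wt libraries 20 (exact permutation within tissue, p = 0.0648, adjusted 0.194), and 18.3 and 18 in IrxB (p = 0.898). Within DFL the IrxB counts were 20 and 20 in wt and 14 and 14 in 542 and did not overlap. No test was made within a tissue, where 2 libraries meet 2.

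Members present in both libraries of a genotype and in neither of the other were counted by tissue, and those named here were chosen after their values were seen. In DFL, 6 members were in wt only (5.22%, against 2.55% of all regions), namely IrxA-31, IrxA-37, IrxB-3, IrxB-26, IrxB-30 and IrxB-40, and 1, IrxA-5, was in 542 only (0.870%, against 2.07%). The wt-only members of DFL include the starts of Irx3 (IrxB-3, fold 4.20 and 4.95 in wt DFL and 3.30 and 3.22 in 542 DFL) and of Irx5 (IrxB-30, 3.13 and 3.603 in wt DFL and 2.31 and 2.34 in 542 DFL), where 542 was lower but still deposited. In FB, 0 members were in wt only (background 1.70%) and 5 in 542 only (4.35%, against 1.65%), which were IrxA-7, IrxA-8, IrxA-46, IrxA-47 and IrxB-30. IrxA-8 was at 3.96 and 4.25 in wt FB and 7.17 and 6.05 in 542 FB. In PFL, 2 were in wt only (IrxA-59, the Irx4 start, and IrxB-40) and 3 in 542 only (IrxA-41, IrxA-45 and IrxB-7), against 2.70% and 2.14% of all regions. IrxB-30 was thus in wt only in DFL and in 542 only in FB, and no member had the same genotype pattern in all 3 tissues (background 0.0116% for wt and 0.0143% for 542). In 2 of the tissues 1 member, IrxB-40, was in wt only (0.870%, against 0.273%) and 0 were in 542 only (background 0.167%). Depth moved with genotype, since in DFL the wt libraries held 44.1 and 54.5 M tags and the 542 libraries 40.2 and 41.4 M, and its part in these counts was not tested.

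The windows of the members were described by the letters they hold. TAATTA occurred in 20 of 115 members (17.4%, against 14.1% of all consensus windows), and in 7 of the 14 FB-only members (50.0%, against 32.3% of the 9764 FB-only regions of the genome). IrxB-16, printed above, holds it at 2 places. It was in none of the 4 limb-only members (9.73% of such regions genome-wide). CAGATG occurred in 41 members (35.7%, against 27.3%), in 3 of the 3 members of the PFL pattern (39.8% of such regions genome-wide), and at 2 places in IrxA-48. TGACAG was in 18 members (15.7%, against 22.0%), and in 4 of the 14 FB-only members (28.6%, against 30.1%), IrxA-52 among them.

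CCAATAAA occurred in 2 members (1.74%, against 1.80%), and 1 of the 2 was the limb member IrxB-18. ACATGT was in 4 members (3.48%, against 8.08%), including the limb member IrxA-13. IrxB-7 holds none of the 6. The mean GC content was 51.4% over the members and 48.6% over all windows. Of the 3 RefSeq promoters, that of Irx2 (69.0% GC) holds 1 CAGATG, found in 17.2% of 32851 promoters, and those of Irx3 (56.0% GC) and Irx4 (70.7% GC) hold none of the 6.

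Genes that act with the Irx proteins were read at their starts. TALE partners bind DNA with homeodomain proteins, and 8 were tested. Of the 8, 0 were higher in limb and 2 were lower (background 21.9% higher and 14.8% lower of all regions tested). Meis3 was at -1.28 (SE 0.165, limma adjusted p = 0.000348) and Pknox2 at -0.55 (SE 0.075, adjusted p = 0.000473). The median of the 8 was -0.05, against 0.03 over all regions tested. Meis2 and Tgif2 were not analysed here, since coordinates on that part of chromosome 2 differ between the genomes used for mapping.

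Of 14 genes linked to patterning of limb and forebrain, 9 had a testable start. Of the 9, 1 was higher in limb and 1 was lower (background 21.9% higher and 14.8% lower of all regions tested). Hand2, a factor of the posterior limb bud, was higher in limb by 0.70 (SE 0.108, limma adjusted p = 0.00101), and Bmp4, a signalling ligand, was at -0.32 (SE 0.084, adjusted p = 0.0153). The other 7 did not pass, among them the shared start of Fto and Rpgrip1l next to IrxB, at 0.09 (adjusted p = 0.301). Shh, the ligand of the limb's polarizing region, had a region in 3 DFL, 1 PFL and 4 FB libraries. None of these genes passed the test between DFL and PFL or between 542 and wt.

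The genes whose starts followed the Irx starts most closely over the 12 libraries were named by Pearson's r between percentiles within a library, among 14545 genes. For IrxA they were Il33 (r = 0.924), Gng10 (0.915) and Zfp69 (0.903), and for IrxB Snapc4 (0.936), H3f3b (0.922) and Mpi (0.919). These values describe 12 points that share libraries and depth, and the highest of many such values are high by selection.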

How the data were processed

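The authors trimmed reads with Cutadapt 1.16, aligned them with bowtie2 2.4.1 to mm10 (wt) or to the 542 genome, filtered with bamtools 2.4.1 and picard 2.18.2, made tags with bedtools 2.30.0 and called peaks per library, without a control, with MACS2 2.1.1.20160309 (tags shifted and extended to 200 bp). Summits of 1 region share its interval. The deposited values are a fold (a ratio of tags to local background), −log10 p-values, −log10 q-values (at least 1.30) and a score, a whole-number form of the deposited −log10 q that was not used.

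Regions were ranked by −log10 q, then fold. Chromosome 2 beyond 75 Mb was left out of all tests, as coordinates differ there. The 50000 strongest regions per library were joined where they shared at least 1 bp. Folds of regions deposited in all 12 libraries were tested on the log2 scale with limma 3.58.1 (R 4.3.3), centred on library medians, with a mean per group. Presence was tested by Fisher's exact test, both with Benjamini-Hochberg adjustment over all regions. Numbers of members were compared by exact permutation. Whole tags were recovered from fold and p for 95.3% to 99.0% of summits within 0.001. The limma fit was tested on simulated data. The joining of regions, the adjustment and Fisher's exact test were checked on known answers, and the exact permutation was not. Windows of 300 bp were read from the RefSeq GRCm38.p6 genome.

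Regions named are those over Irx starts (within 1000 bp), the 3 strongest per cluster and tissue, up to 3 per tissue pattern and up to 3 per limma call. Members, marker and gene lists were chosen with earlier results of these data known, and some listed genes are not reported here. Replicate numbers are those of the labels, and the replicates are separate pools of embryos. Alternatives were shorter and longer lists, other flanks, windows and overlaps, other scalings, added or left-out libraries and a replicate block.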

Additional observations from a re-analysis of the deposited data

Results flagged for a closer look

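In groups of 4 libraries per tissue, 4 of the 30 tested had a library whose gap to the next value exceeded Dixon's limit, where chance gives 1.5. At the Irx2 start 542 DFL replicate 2 was lowest, with its region at percentile 85.5 of the library's folds against 88.2 to 88.5 in the other 3. IrxB members among the 50000 strongest regions numbered 14 in wt PFL replicate 2 against 19 to 20 in the other PFL libraries. At the Irx3 start wt FB replicate 2 was at percentile 21.2 against 42.0 to 43.7. At the Irx6 start 542 FB replicate 2 was at percentile 35.1 against 60.4 to 65.1.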

How the results depend on the processing

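Tissue patterns depended most on list length. Percentages here are the shares of all regions under the same setting. With the 20000 strongest regions 1 member was limb-only (against 3.77%), 4 FB-only (7.58%), 0 DFL (2.14%) and 0 PFL (1.53%). With all deposited regions 10 were limb-only (against 3.81%), 27 FB-only (6.43%), 11 DFL (2.05%) and 3 PFL (1.49%). Requiring 50% of the consensus region left 1 limb-only (against 3.26%), 1 DFL (2.42%) and 1 PFL member (1.84%). Adding the earlier wt DFL library left 1 DFL member (against 1.96%). In the test of folds, regions deposited in at least 4 libraries were also taken, with the lowest fold filled in for the others. Of 132 members among 120189 regions, 50 were then higher and 52 lower in limb, and 21 higher and 17 lower in DFL. In 542, 1 was higher and 2 were lower. A member missing from a tissue takes the filled value there. The share of all regions called is not given, so these counts are not a result about the members. In this fit IrxA-64 lost its call (0.09, limma adjusted p = 0.343). With only the 50000 strongest regions 1 of 8 members tested was higher in limb and 0 in DFL, and tags scaled to depth gave 4 of 15 in DFL. The shares of all regions called in these fits are not given either, so these counts too are not a result about the members.

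The difference in IrxA members of limb minus FB was -8.62 with all deposited regions (exact permutation p = 0.0828). That of 542 minus wt in IrxA was -2.83 with all deposited regions, -1.33 at a −log10 q of at least 10, 3.33 with flanks of 50 kb (exact permutation p = 0.0370) and 3.56 with the earlier library (p = 0.0278). In IrxB, 542 minus wt was -4 with all deposited regions, -3.17 at that −log10 q, -0.333 with no flank, -0.5 with flanks of 50 kb and -2.17 over every summit, and DFL minus PFL was 0.5 with the 20000 strongest regions and 1 over every summit. The cause was not tested.

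Leaving out each library in turn gave 4 to 5 members higher and 0 to 2 lower in limb (2 without 542 PFL replicate 1), and 0 to 2 higher and 0 to 1 lower in DFL (0 higher without any 1 of the 6 libraries named beside IrxA-13, 2 without 542 PFL replicate 1 or 542 FB replicate 2, 1 lower without wt FB replicate 2). The shares of all regions called in these fits, and in that with the replicate block, are not given. In the main fit 21.9% were higher and 14.8% lower in limb, and 3.6% were higher and 2.9% lower in DFL. These counts are therefore not a result about the members. Patterns held 4 to 6 limb-only (against 4.96% to 5.40% of all regions) and 14 to 16 FB-only members (8.95% to 9.85%). They held 2 to 4 DFL (4 without 542 DFL replicate 2, against 2.55% to 3.22%) and 3 to 4 PFL members (2.08% to 2.81%). In IrxA the count differences ranged from -7.5 to -5.17 (limb minus FB), 0.833 to 3.83 (DFL minus PFL, exact permutation p = 0.0286 without 542 PFL replicate 2) and 2.17 to 4.17 (542 minus wt, p = 0.0185 and 0.0463 without 542 DFL replicate 1 and 542 PFL replicate 1). In IrxB, 542 minus wt ranged from -0.5 to 1.17. IrxA-13 kept its limb call, from 1.59 to 1.70. Deviations of same-numbered replicates correlated at -0.0382 to 0.0154 over 15 pairs, so the folds showed no deviation shared by number. Whether same-numbered libraries of different tissues came from the same embryos cannot be told from this. With the replicate block 4 members were higher in limb and 1 in DFL and no call changed. The depth limits members to regions that each library's caller could list.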

Other observations

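The additional, earlier wt DFL library held 78.0 M tags, the most of the 13, and 75 deposited members in IrxA and 65 in IrxB, with 17 and 21 among its 50000 strongest regions. Its folds were 15.6 at IrxA-13, 21.4 at IrxA-58, 14.5 at IrxB-43 and 11.8 at IrxB-7. At IrxB-43 the 4 other DFL libraries were between 4.61 and 7.18. It had no region at IrxA-48, IrxA-24 or IrxA-52.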
